A study of Mus musculus with 7 samples.

Results

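The genes described here encode subunits of the receptors for GABA, glycine, acetylcholine (nicotinic type), serotonin (5-HT3 type) and extracellular ATP (P2X type). They were chosen by gene name alone, as every gene whose symbol begins with Gabr, Gabbr, Glra, Chrn, Htr3 or P2rx followed by the letter or digit of a subunit, together with Glrb, and without pseudogenes and antisense genes. This gave 51 of the 56941 genes in the deposited gene tables, of which 19 encode GABA-A, 2 GABA-B, 5 glycine, 16 nicotinic, 2 5-HT3 and 7 P2X subunits. Transcripts were counted in single nuclei of fresh-frozen lung tumors taken at endpoint from 4 male mice with small cell lung cancer. The 2 animals labelled RP (RP1 and RP2) carried Rb1 fl/fl and Trp53 fl/fl. The 2 animals labelled RPC (RPC1 and RPC2) carried the same alleles and a Casp8 allele that the labels write as Casp8-/-. The study describes RP mice as wild type for Casp8 and RPC mice as homozygous for a conditional Casp8 allele that Cre deletes. Tumors of both genotypes were started in young adult mice by inhaled adenovirus with Cre under the CMV promoter, so that recombination was not restricted to the neuroendocrine lineage. The 7 libraries each pooled nuclei of all 4 animals, and the animal was therefore the replicate. Values below are given in the order RP1, RP2 for the RP animals and RPC1, RPC2 for the RPC animals, and lists of 4 values in the same order.

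Most of these proteins form channels of 5 subunits (GABA-A, glycine, nicotinic and 5-HT3) or 3 subunits (P2X) that open on binding their ligand, whereas the GABA-B receptor is a G protein-coupled pair of both its subunits. GABA-A and glycine receptors pass chloride, and nicotinic, 5-HT3 and P2X receptors pass cations. Pulmonary neuroendocrine cells, from which small cell lung cancer is thought to arise, are innervated, electrically excitable cells that release serotonin and peptides, and several of these receptors are known in them.

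After removal of nuclei with under 300 transcripts, over 10% mitochondrial transcripts or over 12000 genes, 38254 nuclei remained, and 32190 of them (84.1%) were called tumor-like. These nuclei were in clusters where no marker list of another cell type was raised and where the neuroendocrine markers (Calca, Ddc and 12 others) were above their median level in the clusters named as other cell types. The tumor-like nuclei numbered 14340 in RP and 17850 in RPC and held between 27543526 and 52629011 transcripts per animal. Their median depth was 2343 and 2279.5 transcripts in the RP animals and 3345 and 2847 transcripts in the RPC animals, and the ribosomal transcript Rn18s-rs5 took 9.24%, 7.80%, 2.79% and 5.09% of their transcripts in the same order. Depth was thus higher, and the ribosomal share lower, in both RPC animals, and the part of either in the differences below was not tested. Casp8 itself stood at 57.3 and 60.5 CPM in the RP animals and 91.5 and 66.5 CPM in the RPC animals (CPM being counts scaled to the library total, here without TMM scaling) and was not lower in RPC. Counts over the whole gene, introns included, do not show whether exons were deleted, so RP and RPC stand for the labels of the animals. Each tumor-like cluster held mostly nuclei of 1 animal, 1980 shallow nuclei stayed unnamed, and no nucleus barcode was shared between animals.

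Of the 51 receptor genes, 35 had enough transcripts in tumor-like nuclei to be tested, and their levels are given as CPM of the counts summed per animal after TMM scaling. The other 16, among them Chrna1, Chrna6, Htr3b, P2rx2 and P2rx6, had between 3 and 34 transcripts over all tumor-like nuclei of the 4 animals, and at most 18 in 1 animal.

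Levels of different genes were set side by side per length, since nuclear transcripts include introns and a long gene collects more counts. Expressed as CPM per kilobase of gene span, the mean over the 4 animals was 2.99 for Gabrq (theta subunit of GABA-A, range over animals 2.05 to 4.37), 2.91 for Gabbr1 (2.12 to 4.04) and 1.69 for P2rx4 (1.43 to 1.82). Gabrq and Gabbr1 overlapped over animals, and P2rx4 lay below both. Gabre (epsilon subunit of GABA-A) stood at 0.941 CPM per kilobase (0.625 to 1.21) and Chrnb2 (beta 2 nicotinic subunit) at 0.896 (0.834 to 0.947), which also overlapped.

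**Figure D1:**
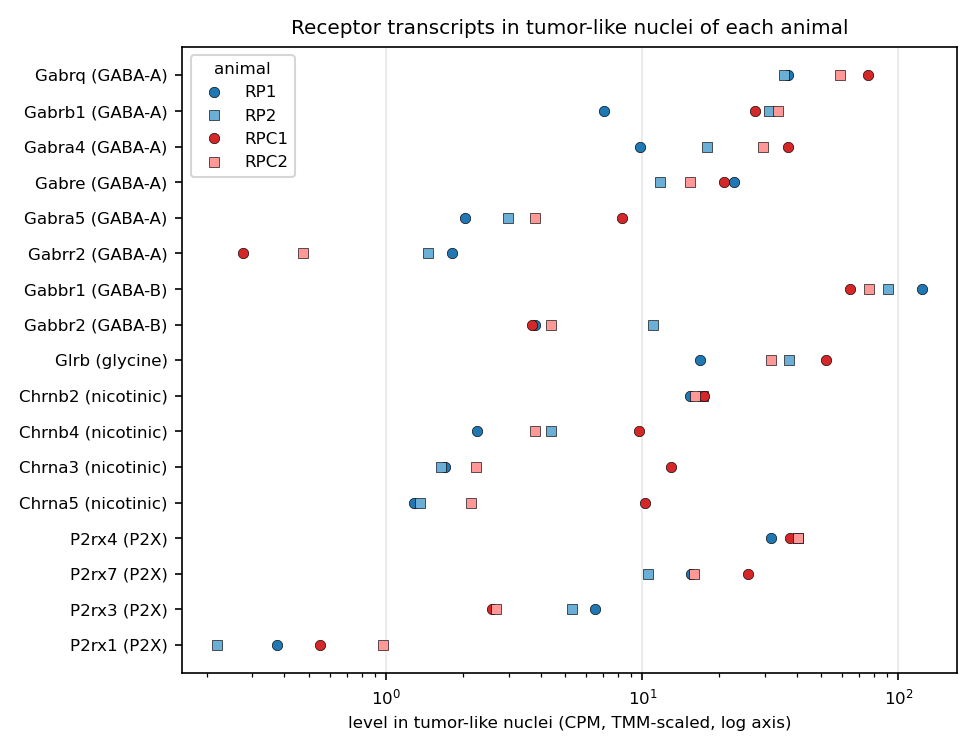
Level of 17 receptor genes in tumor-like nuclei, in CPM after TMM scaling on a log axis, with 1 point per animal (blue RP, red RPC). Gabbr1 lies between 64.7 and 123 CPM and P2rx1 below 1 CPM in each animal, and the points of Chrna3, Chrna5 and Gabra5 are spread mainly by RPC1.

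Many of the receptor genes lie in groups on the genome, and within some of these groups the transcripts were unequally shared. Of the 51 genes, 31 had another member within 1 Mb, in 12 loci. Among the GABA-A genes of chromosome 5, Gabra4 (GRCm39, 71721738 to 71815722, minus strand) held 49.5% of the tumor-like transcripts of the locus and Gabrb1 (71815456 to 72319431, plus strand) 49.3%, whereas Gabra2 and Gabrg1 held 0.947% and 0.240%. The X-linked locus was shared between Gabrq (71868784 to 71886208, plus strand) with 75.4% and Gabre (71299605 to 71318409, minus strand) with 23.7%, and Gabra3 between them held 0.879%. The nicotinic locus of chromosome 9 was shared more evenly, with 35.8% for Chrna3, 35.3% for Chrnb4 and 29.0% for Chrna5. All these shares are counts not divided by gene length. Per kilobase, the mean was 0.251 CPM for Gabra4 and 0.0495 CPM for Gabrb1. It was 2.99 CPM for Gabrq, 0.941 CPM for Gabre and 0.00292 CPM for Gabra3.

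Setting RPC beside RP addresses the question which receptor genes differ between tumors with the conditional Casp8 allele and tumors wild type for Casp8. The quasi-likelihood test of edgeR called none of the 35 receptor genes at an adjusted p under 0.05, as it called 0 of all 20115 genes tested (0%), and the lowest adjusted p among the receptor genes was 0.272. At an unadjusted p under 0.05 stood 11 of the 35 receptor genes, 7 of them higher and 4 lower in RPC, and 15.1% of all genes (1493 higher and 1540 lower). In 8 receptor genes the 2 RP and 2 RPC animals did not overlap and the levels differed at least 2-fold, with 5 of them higher in RPC, and the same held for 9.07% of all genes. DESeq2, the tool of the study, called 5 of the 26 receptor genes for which it gave an adjusted p (Gabra4, Gabrq, Chrna5, Gabrr2 and P2rx3) and 3.52% of all genes with an adjusted p. The median log2 fold change was 0.12 over the receptor genes and -0.01 over all genes. A positive value was found for 21 of the 35 and for 49.1% of all genes. With 2 animals per genotype an exact permutation test of a single value cannot give a p below 0.333.

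**Figure D2:**
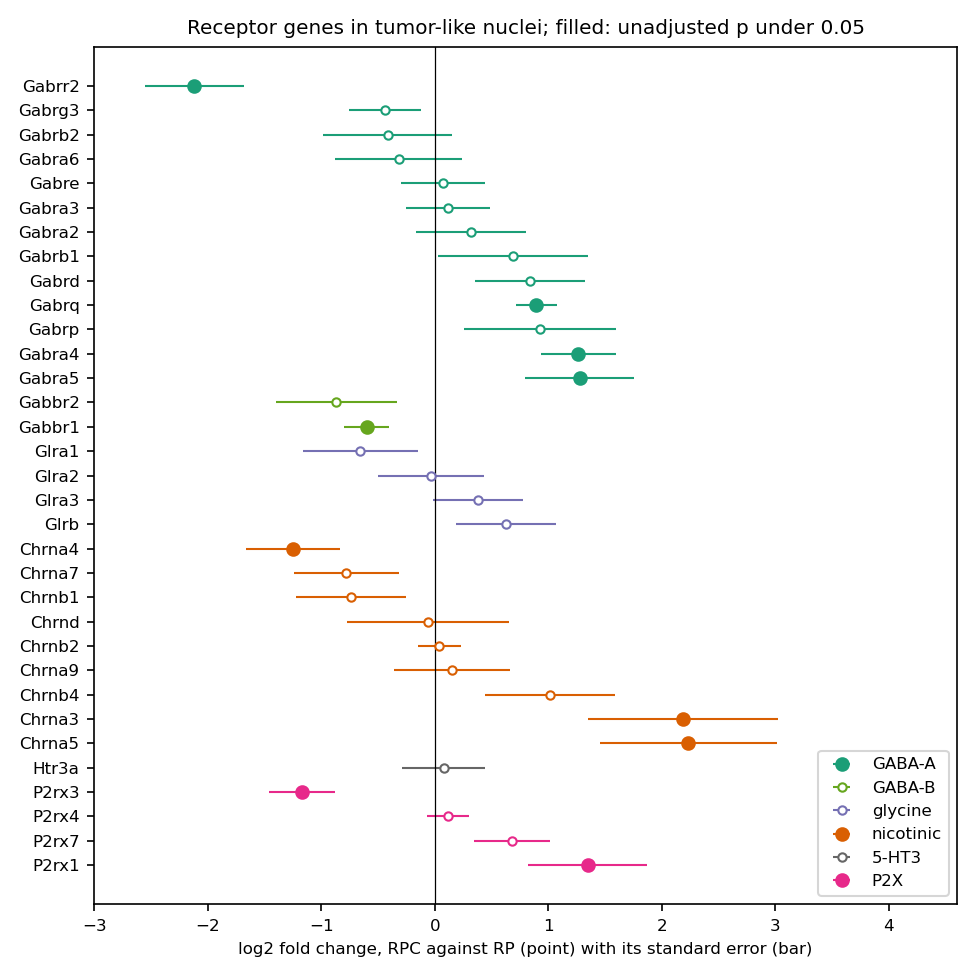
Log2 fold change of RPC against RP (points) with its standard error (bars) for 33 of the 35 receptor genes tested in tumor-like nuclei, colored by receptor family, with filled points for an unadjusted p under 0.05. The values run from -2.12 (Gabrr2) to 2.23 (Chrna5), and no gene passed the adjusted threshold of edgeR.

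Gabra4 encodes an alpha subunit of the GABA-A receptor, which forms the GABA site together with a beta subunit. Its level was 9.76 and 17.9 CPM in the RP animals and 36.9 and 29.7 CPM in the RPC animals, so both RPC animals lay above both RP animals. The log2 fold change was 1.27 ± 0.33 (SE), with an adjusted p of 0.281 by edgeR and of 0.0301 by DESeq2. Gabra5 stood at 2.03 and 2.99 CPM in the RP animals and 8.35 and 3.82 CPM in the RPC animals, a log2 difference of 1.28 ± 0.48 (SE; edgeR adjusted p = 0.322) that was set mainly by RPC1 and was 0.61 without that animal.

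Gabrb1 encodes the beta 1 subunit, and its start overlaps that of Gabra4 on the opposite strand. Its level was 7.06 and 31.1 CPM in the RP animals and 27.6 and 33.9 CPM in the RPC animals, so that RP1 alone stood low and the other 3 animals were close together. The log2 fold change was 0.69 ± 0.66 (SE; edgeR adjusted p = 0.636) and -0.01 without RP1. A difference between the fold changes of Gabrb1 and Gabra4 was not tested. Whether the counting used strand is not given in the sources used here, so reads from the overlap of Gabra4 with Gabrb1 cannot be told apart. Gabra5 likewise overlaps a gene on the opposite strand for most of its length.

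The X-linked genes Gabrq and Gabre encode the theta and epsilon subunits, which occur together in receptors of hypothalamic and monoaminergic neurons. Gabrq was present at 37.0 and 35.7 CPM in the RP animals and 76.1 and 59.3 CPM in the RPC animals. The RP animals were nearly equal and the RPC animals lay above them, with a log2 fold change of 0.90 ± 0.18 (SE), an edgeR adjusted p of 0.272 and a DESeq2 adjusted p of 0.0297. After each nucleus had been thinned to 1000 transcripts, at least 1 Gabrq transcript was found in 3.25% of the tumor-like nuclei of RP1 (95% exact interval 2.83 to 3.72), 3.46% of RP2 (3.03 to 3.93), 7.77% of RPC1 (7.23 to 8.34) and 5.29% of RPC2 (4.82 to 5.80). In endothelial-like nuclei, thinned in the same way, the shares were 1.19%, 2.56%, 2.33% and 1.34%, which rest on 1 to 3 nuclei each and have intervals that reach 4.76% to 8.15%, so that they differ from those of tumor-like nuclei beyond counting error only in RPC2. Without thinning, the tumor-like shares were 12.4%, 12.1%, 28.9% and 21.5%. Median depths before thinning were 2507 to 3386.5 transcripts in tumor-like, 2547 to 4034.5 in endothelial-like and 3387 to 5042 in macrophage-like nuclei, the intervals cover counting error only, and nuclei under 1000 transcripts (138 to 783 tumor-like nuclei per animal) were left out. Gabre was at 22.8 and 11.7 CPM in the RP animals and 20.9 and 15.4 CPM in the RPC animals, with overlapping genotypes and a log2 fold change of 0.07 ± 0.37 (SE). Both genes lie in the same locus, but only the animals of Gabrq were apart by genotype; a difference between these fold changes was not tested.

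Lower levels in RPC were found for Gabrr2, which encodes a rho subunit known from the retina. Its level was 1.80 and 1.46 CPM in the RP animals and 0.276 and 0.474 CPM in the RPC animals, counted from 125 transcripts in all. The log2 fold change of -2.12 ± 0.44 (SE) was the most negative among the receptor genes (edgeR adjusted p = 0.272, DESeq2 adjusted p = 0.0292). The low count limits this value, as only 3 and 4 of the thinned nuclei of RPC1 and RPC2 held a transcript, against 10 and 8 in RP1 and RP2.

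The subunits of the GABA-B receptor were unequal in level. Gabbr1, which binds GABA, was at 123 and 91.1 CPM in the RP animals and 64.7 and 76.6 CPM in the RPC animals. Both RPC animals were below both RP animals, and the log2 fold change was -0.60 ± 0.20 (SE; edgeR adjusted p = 0.300). The share of thinned tumor-like nuclei with a Gabbr1 transcript was 11.4%, 8.62%, 6.65% and 7.27% in RP1, RP2, RPC1 and RPC2. This share was no higher than the 11.9%, 11.97%, 6.98% and 9.40% of endothelial-like nuclei. It was above the 3.50%, 3.97%, 2.70% and 3.18% of macrophage-like nuclei. Only 84 to 149 endothelial-like and 143 to 277 macrophage-like nuclei per animal entered these shares, and their differences from tumor-like nuclei were not tested. Without thinning, the tumor-like shares were 32.1%, 26.0%, 26.2% and 26.5%. Gabbr2, which carries the receptor to the surface and couples it to the G protein, stood at 3.79 and 11.0 CPM in the RP animals and 3.70 and 4.40 CPM in the RPC animals. Only RP2 was high, and the log2 fold change of -0.87 ± 0.54 (SE) turned to 0.11 without RP2. Per kilobase, Gabbr1 reached 2.91 CPM and Gabbr2 0.0173 CPM.

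Glycine receptors are built of alpha subunits and the beta subunit Glrb, which links them to the scaffold protein gephyrin. Glrb was the glycine receptor gene with most transcripts, at 16.9 and 37.3 CPM in the RP animals and 52.1 and 31.8 CPM in the RPC animals, with overlapping genotypes (log2 fold change 0.63 ± 0.44, SE, edgeR adjusted p = 0.515). The value changed with the animal left out, and was 0.17 without RP1, 1.33 without RP2 and 0.24 without RPC1. Of the alpha subunits, Glra1, Glra2 and Glra3 were tested and lay between 0.203 and 0.590 CPM in every animal.

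Among the nicotinic genes, Chrnb2 was even across the animals, with 15.4 and 17.2 CPM in the RP animals and 17.5 and 16.1 CPM in the RPC animals. The log2 fold change was 0.04 ± 0.19 (SE), and it was -0.06 without nuclei above 4 times the median depth. Chrna3, Chrna5 and Chrnb4, which encode the subunits of the receptor of autonomic ganglia, lie side by side within 67.9 kb of chromosome 9, and their promoters are shown because the levels of all 3 genes were highest in the same animal. Chrna3 stood at 1.69 and 1.64 CPM in the RP animals and 12.9 and 2.24 CPM in the RPC animals. Chrna5 stood at 1.28 and 1.35 CPM in the RP animals and 10.2 and 2.13 CPM in the RPC animals. RPC1 was thus far above the other animals in both genes, and RPC2 lay slightly above the RP animals. Chrnb4, whose values were chosen after they had been seen because it is the third gene of the locus, stood at 2.25 and 4.41 CPM in the RP animals and 9.68 and 3.79 CPM in the RPC animals.

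For Chrna3 the log2 fold change was 2.19 ± 0.84 (SE; edgeR adjusted p = 0.325), falling to 0.44 if RPC1 was left out, and for Chrna5 it was 2.23 ± 0.78 (SE; edgeR adjusted p = 0.306, DESeq2 adjusted p = 0.0428), with 0.71 if RPC1 was left out. For Chrnb4 it was 1.01 ± 0.58 (SE; edgeR adjusted p = 0.442), with 0.19 if RPC1 was left out. The high level in RPC1 did not come from 1 cluster: in the 3 tumor-like clusters of RPC1 with at least 100 nuclei, Chrna3 lay between 10.8 and 15.4 CPM and Chrna5 between 7.79 and 12.6 CPM. In the other animals Chrna3 reached at most 9.65 CPM in a cluster, from 2 transcripts in 152 nuclei of RP1. The other 22 tested genes within 1 Mb of Chrna3 had a median log2 fold change of 0.20, and 2 of them an unadjusted p under 0.05. Chrna3 and Chrna5 overlap at their ends on opposite strands, with the same limit on the assignment of reads as above.

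The sequences in front of a start of each of the 3 genes were read from GRCm39 on the strand of each gene, 5′ to 3′, up to the base before the most upstream transcript start that GENCODE M39 places within 500 bases of the canonical start, and only as far as no annotated exon covers them. The Chrna5 window lies within the annotated gene, in an intron of longer transcripts that begin farther upstream. Capitals mark the letters GGGCGG or their reverse complement CCGCCC, the core of the GC box. The E-box CAGCTG, a sequence bound by basic helix-loop-helix factors, was also searched on both strands, and these motifs do not overlap each other here.
Chrna5, chr9:54888532-54888693, plus strand: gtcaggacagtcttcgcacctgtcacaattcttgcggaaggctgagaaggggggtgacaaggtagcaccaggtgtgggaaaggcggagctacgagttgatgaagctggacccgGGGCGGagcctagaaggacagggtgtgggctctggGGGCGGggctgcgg
Chrna3, chr9:54933942-54934191, minus strand: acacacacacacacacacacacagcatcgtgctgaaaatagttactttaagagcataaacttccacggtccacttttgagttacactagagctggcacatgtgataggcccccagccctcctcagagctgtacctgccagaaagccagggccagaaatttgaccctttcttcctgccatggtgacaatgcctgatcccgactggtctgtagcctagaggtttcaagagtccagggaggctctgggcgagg
Chrnb4, chr9:54956077-54956326, minus strand: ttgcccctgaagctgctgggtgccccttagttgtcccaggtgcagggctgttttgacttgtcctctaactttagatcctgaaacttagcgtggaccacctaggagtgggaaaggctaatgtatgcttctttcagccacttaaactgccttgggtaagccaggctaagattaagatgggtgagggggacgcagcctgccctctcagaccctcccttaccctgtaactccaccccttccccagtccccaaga
The GC box was found 2 times in the 162 bases of Chrna5 and not in the 250 bases of Chrna3 or Chrnb4, and CAGCTG was in none of the 3 windows. Over full windows of 250 bases upstream of 21770 protein-coding genes, 32.4% held GGGCGG and 11.8% held CAGCTG on either strand. Those windows were not cut at exons, unlike the 162 bases of Chrna5 printed here. Among the 51 receptor genes, 14 windows held GGGCGG and 9 held CAGCTG.

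P2X receptors are cation channels gated by ATP. P2rx4 was the most abundant and even across the animals, at 31.7 and 40.4 CPM in the RP animals and 37.8 and 40.6 CPM in the RPC animals (log2 fold change 0.12 ± 0.19, SE). P2rx7, the low-affinity receptor known from immune cells, was at 15.5 and 10.5 CPM in the RP animals and 25.7 and 15.8 CPM in the RPC animals without overlap of the genotypes (log2 fold change 0.68 ± 0.33, SE, edgeR adjusted p = 0.393, and 0.29 without RPC1). P2rx3, known from sensory neurons, was lower in both RPC animals, at 6.53 and 5.29 CPM in the RP animals and 2.58 and 2.67 CPM in the RPC animals. Its log2 fold change was -1.17 ± 0.29 (SE; edgeR adjusted p = 0.273, DESeq2 adjusted p = 0.0421). P2rx1 was scarce, with 91 transcripts in all, at 0.375 and 0.219 CPM in the RP animals and 0.553 and 0.970 CPM in the RPC animals. The 13 tested genes that the naming rule did not select, Chrnb4 aside, lay between 0.203 and 8.18 CPM, and 1 of them (Chrna4) had an unadjusted p under 0.05. Of the 5-HT3 genes, Htr3a was tested, at 2.22 and 2.63 CPM in the RP animals and 3.10 and 2.00 CPM in the RPC animals; Chrna4, Htr3a and the Glra genes were named after their values had been seen.

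The levels also varied between the tumor-like clusters of 1 animal. Gabrb1 reached 86.3 CPM (without TMM scaling) in a cluster of 583 RPC1 nuclei led by Grik2, which encodes a kainate receptor subunit, against 18.7 and 21.3 CPM in the other clusters of RPC1. This cluster held 11.5% of the tumor-like transcripts of RPC1, but 34.7% of those of Gabrb1, 22.5% of those of Gabra5 and 48.3% of those of Gabbr2. Transcripts of the 8 neuron markers summed to 490 CPM in it and to 168 CPM in the other tumor-like nuclei of RPC1, and the 14 neuroendocrine markers to 4112 and 4729 CPM. None of the neuron markers was at 0 in either set. A sum is carried by the most abundant markers. The median log2 excess of the neuron markers over all other nuclei was only 0.22 in the Grik2-led cluster. It was 0.21 in the cluster led by Dmc1, 0.39 in that led by Asic2 and at most 0.022 in the other tumor-like clusters. The 8 autonomic ganglion markers summed to 43.9 CPM in the Grik2-led cluster, with 3 at 0, and to 37.5 CPM in the other tumor-like nuclei of RPC1. Without the Grik2-led cluster, an alternative chosen after the data were seen, the log2 fold change was 0.51 for Gabrb1, 1.15 for Gabra5 and 1.24 for Gabra4. In RP2, Gabbr2 reached 62.0 CPM in a cluster of 618 nuclei led by Asic2, which encodes an acid-sensing ion channel, against 5.67 to 17.7 CPM in the other clusters, and 27.9% of the Gabbr2 transcripts of RP2 came from these nuclei, with 4.90% of all tumor-like transcripts.

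**Figure D3:**
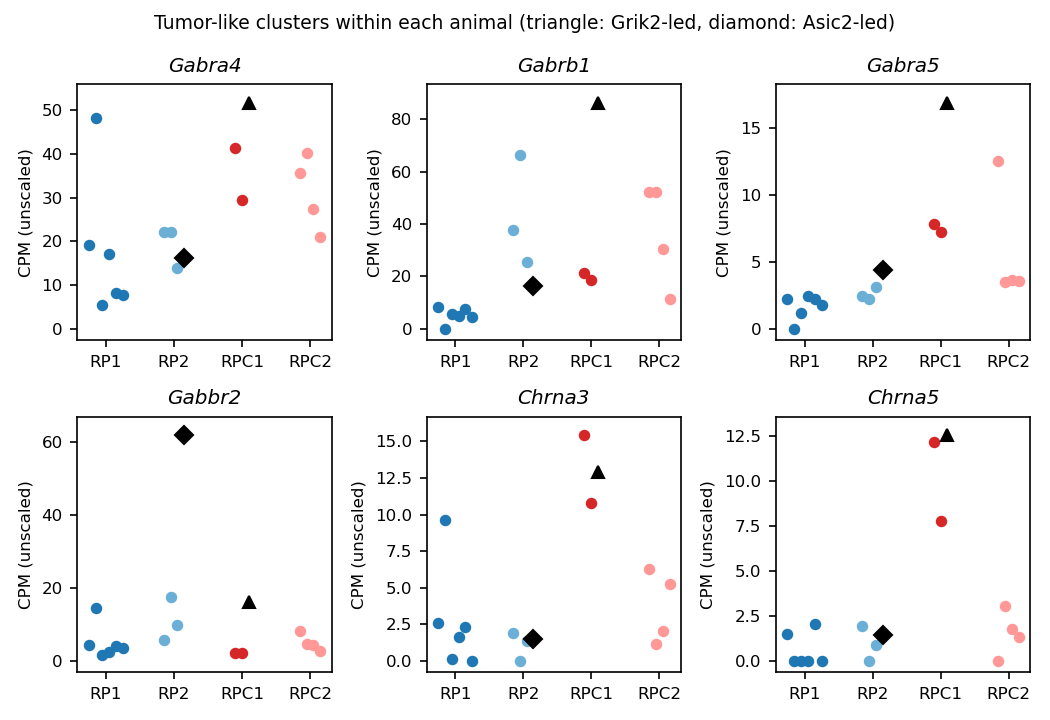
Level of 6 receptor genes (CPM, without TMM scaling, linear axes) in each tumor-like cluster with at least 100 nuclei of an animal, with 1 point per cluster and animal. Gabrb1 and Gabra5 are highest in the Grik2-led cluster of RPC1 (triangle), Gabbr2 in the Asic2-led cluster of RP2 (diamond), and Chrna3 and Chrna5 are high in all 3 clusters of RPC1.

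The genes that make, carry and anchor these receptors and their ligands were taken from 9 lists with 83 genes. Of these, 69 were tested in tumor-like nuclei, edgeR called none (0% of all genes) and DESeq2 called 2 (Slc6a9 and Rapsn, with 3.52% of all genes called), and 10 had an unadjusted p under 0.05 (7 of them higher in RPC), as did 15.1% of all genes. These shares are near those of all genes or below them. Their median log2 fold change was -0.12, beside -0.01 over all genes. Of the 69 genes, 26 were higher in RPC, beside 49.1% of all genes. By list, the genes with an unadjusted p under 0.05 were 3 of 12 for the inhibitory synapse scaffold (2 higher), 1 of 4 for glycine transport and breakdown (lower), 5 of 10 for nicotinic receptor chaperones and Ly6 modulators (4 higher) and 1 of 8 for serotonin synthesis and transport (higher), and no list was tested against the other genes. The lists of GABA synthesis and transport (6 tested), GABA-B receptor partners (6), chloride transport (5), cholinergic synthesis (3) and purine signaling (15) had none.

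Gphn, which encodes gephyrin, the scaffold of GABA-A and glycine receptors, was at 2510 and 6957 CPM in the RP animals and 2100 and 2133 CPM in the RPC animals. RP2 alone stood far above the others, and the log2 fold change was -1.16 ± 0.49 (SE; edgeR adjusted p = 0.343) and -0.23 without RP2. Nlgn2, a neuroligin of inhibitory synapses, was lower in both RPC animals, at 98.5 and 64.3 CPM in the RP animals and 30.8 and 45.03 CPM in the RPC animals (log2 fold change -1.10 ± 0.29, SE, edgeR adjusted p = 0.281). Slc6a9, the glycine transporter GlyT1, was at 40.7 and 33.0 CPM in the RP animals and 13.6 and 21.1 CPM in the RPC animals (log2 fold change -1.09 ± 0.27, SE, edgeR adjusted p = 0.273, DESeq2 adjusted p = 0.0456). Slc18a1, a vesicular monoamine transporter of endocrine cells, was higher in RPC, at 325 and 366 CPM in the RP animals and 562 and 551 CPM in the RPC animals (log2 fold change 0.69 ± 0.15, SE, edgeR adjusted p = 0.272).

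Both Ly6 genes named here encode small surface proteins of a family that modulates nicotinic receptors. Ly6h was at 11.6 and 7.88 CPM in the RP animals and 15.9 and 20.8 CPM in the RPC animals, and Ly6e at 6.08, 12.7, 21.6 and 19.0 CPM in the same order, so that in both genes the RPC animals were above the RP animals (log2 fold changes 0.92 ± 0.29 and 1.11 ± 0.38, SE). The remaining genes named by the same rule had log2 fold changes of 0.88 for Plcl1, an inactive relative of phospholipase C that binds the GABA-A receptor-associated protein, -0.52 for Gabarap, a GABA-A receptor-associated protein of the autophagy family, -0.51 for Agrn, the organizer of nicotinic receptors at the neuromuscular junction, and -0.43 for Kctd12, an auxiliary subunit of GABA-B receptors.

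Several receptor genes that were scarce in tumor-like nuclei were abundant in other classes of nuclei, which were described without a test since the classes are clusters of the same nuclei. The receptor genes themselves had been left out of the genes used for clustering. The levels in these classes are CPM without TMM scaling, and the 14 neuroendocrine markers, summed, reached between 24.0% and 86.5% of their tumor-like level in these classes, so that a receptor gene at such a fraction of its tumor-like level cannot be told from carried-over RNA or from mixed nuclei.

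P2rx4 and P2rx7 were highest in macrophage- or monocyte-like nuclei. P2rx4 stood there at 166 and 135 CPM in the RP animals and 121 and 112 CPM in the RPC animals, which is 3.55 times its tumor-like level on average, and P2rx7 at 63.5, 73.6, 69.6 and 76.9 CPM, 4.18 times its tumor-like level. Without nuclei above 4 times the median depth of their animal, these ratios were 6.08 and 7.12. In thinned macrophage-like nuclei, 25.9%, 21.7%, 15.1% and 17.2% held a P2rx4 transcript in RP1, RP2, RPC1 and RPC2, against 2.87%, 4.15%, 3.62% and 3.61% of tumor-like and 3.57%, 5.98%, 4.65% and 4.03% of endothelial-like nuclei. The edgeR test of RPC against RP in macrophage-like nuclei called none of the 11 receptor genes tested and 0.0085% of all genes, and 4 of the 11 and 12.4% of all genes had an unadjusted p under 0.05. DESeq2 called none of the receptor genes either. P2rx4 was lower in both RPC animals (log2 fold change -0.46 ± 0.18, SE, edgeR adjusted p = 0.387), and P2rx7 differed by -0.02 ± 0.21 (SE). Gabra4 stood in macrophage-like nuclei at 4.04 and 6.82 CPM in the RP animals and 19.4 and 19.4 CPM in the RPC animals (after TMM scaling; log2 fold change 1.75 ± 0.42, SE, edgeR adjusted p = 0.294), below its tumor-like level in each animal, and the neuroendocrine markers reached 59.6% to 72.1% of their tumor-like level there. The class held between 158 and 309 nuclei per animal.

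Gabrp, which encodes the pi subunit known from epithelia, was highest in club- and ciliated-like nuclei. In club-like nuclei it reached 115 and 83.9 CPM in the RP animals and 112 and 44.7 CPM in the RPC animals from 1773 transcripts (1356 of them in RPC1), against a mean of 0.835 CPM in tumor-like nuclei. The mean ratio was 106, and 275 without the nuclei above 4 times the median depth. In ciliated-like nuclei, Gabrp reached 7.13, 14.2, 86.0 and 45.05 CPM from 41 transcripts, with animals that differed widely. P2rx6 was near 0 in tumor-like nuclei (0.216 CPM on average) and stood in ciliated-like nuclei at 49.9, 39.8, 28.7 and 32.8 CPM from 37 transcripts.

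Chrna7, the subunit of the homomeric nicotinic receptor, was found in smooth muscle-, pericyte- or fibroblast-like nuclei at 46.8 and 72.3 CPM in the RP animals and 13.1 and 4.52 CPM in the RPC animals, against 0.886 CPM on average in tumor-like nuclei. The RP animals were above the RPC animals, but with 82 to 126 nuclei per animal and no test in this class the difference is only a description. In the same nuclei, Gabra3 stood at 44.1, 7.78, 31.9 and 23.4 CPM in the same order of animals. Gabra3 also reached 57.9 ± 27.4 CPM (mean ± SD, n = 4 animals) in mesothelial-like nuclei, from 17 transcripts. Chrnb1, the beta subunit of muscle receptors, was at 32.0, 25.9, 22.8 and 16.2 CPM in alveolar type 1-like nuclei, from 30 transcripts, and at 1.77 CPM on average in tumor-like nuclei. P2rx5 was found in alveolar type 2-like nuclei from 16 transcripts, at 0 in RP1, where 3 transcripts would give 55.6 CPM, and at 40.2, 23.2 and 5.81 CPM in RP2, RPC1 and RPC2. The same rule named 6 further pairs of a receptor gene and a class, with ratios between 3.06 and 9.72 and 10 to 38 transcripts each, of which the 3 of Gabrp fell below 3 times the tumor-like level without nuclei above 4 times the median depth.

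**Figure D4:**
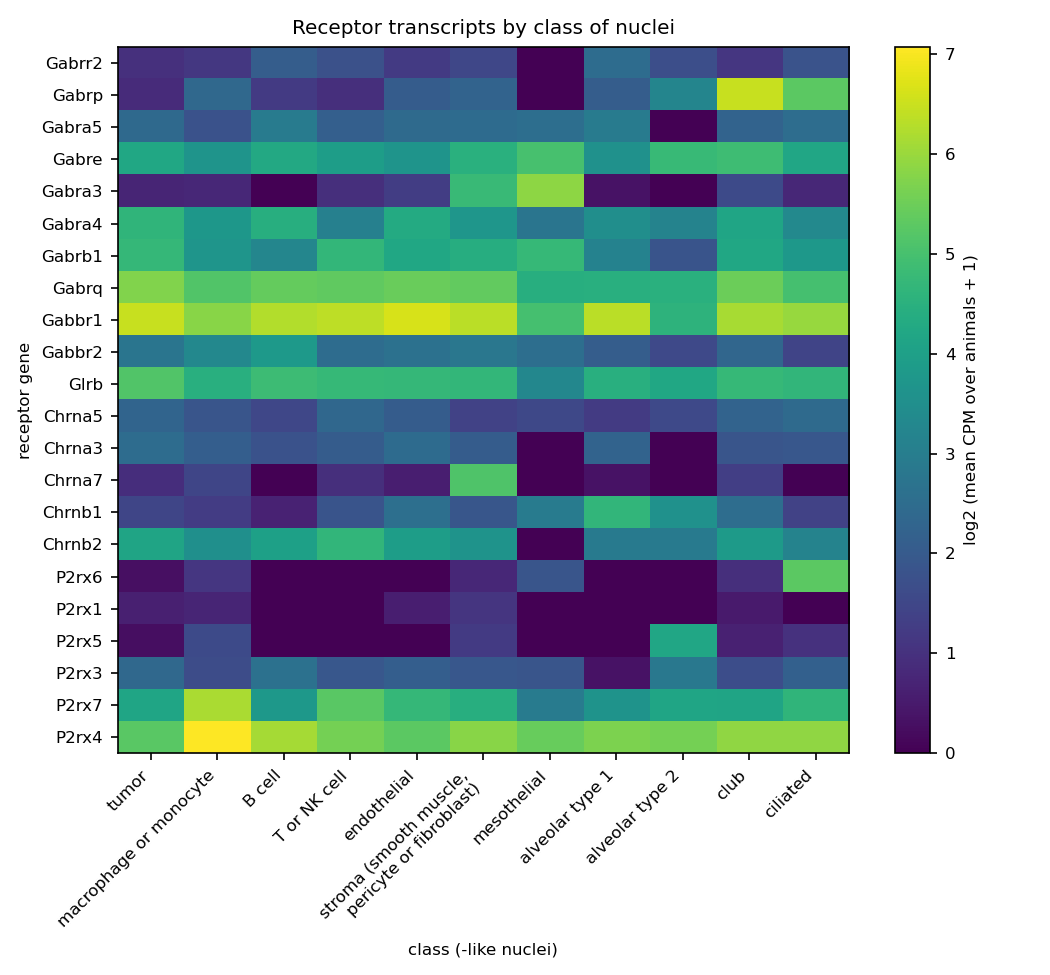
Level of 22 named receptor genes (rows) in tumor-like nuclei and 10 other classes of nuclei (columns), as log2 of the mean CPM over animals plus 1, without TMM scaling. Gabbr1 and Gabrq are found in every class, whereas Gabrp stands out in club-like, P2rx6 in ciliated-like, Chrna7 in smooth muscle-, pericyte- or fibroblast-like and P2rx4 in macrophage- or monocyte-like nuclei.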

How the data were processed

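Nuclei of the 4 animals were profiled with Parse combinatorial barcoding. The authors aligned the reads to GRCm39 (Ensembl 110), split them by animal with the Parse pipeline and deposited unnormalized transcript counts, 1 matrix per animal. Of the 12 columns of the deposited table of nuclei, 9 were not used. Nuclei were filtered as given above and clustered (Leiden, resolution 0.4, 2000 variable genes without receptor genes). A cluster was named where the median log2 excess of a marker list reached 1.5, a limit set after the clusters were seen, and doublets were not removed by a caller. Counts were summed per animal and tested with edgeR 4.0.16 (filterByExpr, TMM, quasi-likelihood test, Benjamini-Hochberg adjustment, threshold 0.05) after a check on simulated data. DESeq2 1.42.0 was an alternative, with the others given in the closing section. Named were receptor genes with at least 10 CPM in 1 animal, those apart by genotype and 2-fold with at least 20 transcripts in 1 animal, those at 3 times their tumor-like level in another class with at least 10 transcripts, and the 10 partner genes with the largest log2 fold change among those apart and at an average log2 CPM of at least 3. The receptor genes, lists and rules were chosen with earlier results of these data known. With 2 animals per genotype, p-values rest on a small spread estimate. Some genes are not reported here.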

Additional observations from a re-analysis of the deposited data

How the results depend on the processing

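The log2 fold changes of the 17 receptor genes named by level or difference kept their direction and their side of the threshold in 225 of 238 values under the alternatives. This count ignores size, so the fall for Chrna3 from 2.19 to 0.44 without RPC1 counts as kept. The side of the threshold could hardly change, as edgeR called 0 of all genes in the main setting and in most alternatives. DESeq2 called 5 receptor genes and 2 partner genes where edgeR called 0. In macrophage-like nuclei, omitting the filter on low counts gave 2 called receptor genes (Gabra4, adjusted p = 0.0192, and Chrna5, adjusted p = 0.00848, by edgeR) instead of 0. Chrna5 was not among the 11 receptor genes that passed the filter there, so its call rests on low counts. The share of all genes called under that setting is not given here, so these calls are not read as a result about the receptors. In tumor-like nuclei, omitting the filter raised the receptor genes tested from 35 to 51 and all genes tested from 20115 to 36596. The receptor genes apart and 2-fold then rose from 8 to 14, and the calls over all genes from 0 to 29. The share of all genes apart and 2-fold without the filter is not given here, so the 14 are not read as a result about the receptors. Leaving out 1 animal at a time moved the 11 receptor genes with an unadjusted p under 0.05 to between 4 (without RP1) and 12, the 8 apart and 2-fold to between 7 and 20 (without RPC2), and the 16 pairs of gene and class to between 10 (without RPC1) and 16. The lone remaining animal of a genotype was then assumed to vary like the others. With 1 animal left in a genotype, non-overlap is easier to reach for every gene. The receptor genes tested also rose, from 35 to between 38 (without RPC2) and 42 (without RP2). The share of all genes apart and 2-fold in these settings is not given here. The 7 to 20 genes are therefore not read as a result about the receptors. Leaving out 1 animal at a time, the log2 fold change crossed 0 for Chrnb2 (-0.032 to 0.14, negative without RP1 or RPC1), Gabbr2 (-1.43 to 0.11, positive without RP2), Gabrb1 (-0.013 to 2.13, negative without RP1), Gabre (-0.31 to 0.63, negative without RP2 or RPC1) and P2rx4 (-0.040 to 0.32, negative without RP1). Without nuclei above 4 times the median depth it was -0.060 for Chrnb2. The cause was not tested. The animals share only a replicate number between genotypes (correlation of the deviations -0.04). With a replicate block, 5 of the 35 receptor genes instead of 11 had an unadjusted p under 0.05, and 0 were called. Over all 20115 genes, 2498 instead of 3033 had an unadjusted p under 0.05 with the block, so the count fell there too. Depth limits the 16 untested genes and the classes of few nuclei.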
